A study of Mus musculus with 11 samples.

Results

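The genes described here encode the subunits of the mitochondrial respiratory chain and its ATP synthase, with a few genes that share their names. Members were the genes whose symbol begins with Ndufa, Ndufb, Ndufc, Ndufs, Ndufv, Uqcr, Atp5 or Cox4 to Cox8, with Sdha, Sdhb, Sdhc, Sdhd, Cyc1 and Cycs. They came to 89 of 17097 genes that had a probe set carrying 1 gene symbol, and each gene was read from its brightest probe set over the 9 gland arrays. Complex I had 40 members, Complex II 4, Complex III 8, cytochrome c 1, Complex IV 19 and ATP synthase 17. By function 80 of the 89 are structural subunits, and the other 9 are 7 Ndufaf assembly factors of Complex I, the supercomplex factor Cox7a2l and a pseudogene, Ndufs5-ps.

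The arrays profiled T cells of NOD mice, inbred mice in which the lacrimal (tear) gland becomes inflamed through autoimmunity. All mice were male and 16 weeks old. From the gland, CD4+ TCRbeta+ cells were sorted into LG_naïve, lacking PD1 and ICOS, and 2 effector subsets high for PD1 and ICOS, LG_eTreg and LG_eTconv, with 3 arrays each. Spl_CD4 and Spl_CD8, total splenic CD4+ and CD8+ T cells of the same mice, had 1 array each. The same CD73 and CD200 gate was written for both effector subsets, so how they were told apart is not given in the sources used here. No label says whether the 3 arrays of a gland group came from separate mice, so the p-values here speak only to how these arrays vary, which may be technical.

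The respiratory chain passes electrons from NADH, through Complex I, and from succinate, through Complex II, to ubiquinone. Complex III moves them on to cytochrome c and Complex IV hands them to oxygen, while the proton gradient built by Complexes I, III and IV drives ATP synthase. Most subunits are encoded in the nucleus and present in nearly every cell, and a few Complex IV subunits have isoforms restricted to muscle, testis or hypoxic cells. In T cells, activation is known to raise mitochondrial mass and respiration, and regulatory T cells are known to depend on oxidative metabolism. The subunits encoded by mitochondrial DNA were not analysed here.

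Promoters are shown for Cox7a2l, Ndufb8 and Ndufaf4, members that passed the test below, and for Cox6a1, the general counterpart of the isoform Cox6a2, which also passed and whose own promoter is not shown. Each is the 250 bases before the gene start on its own strand, from RefSeq on GRCm38.p6. Capitals mark matches to the NRF1 motif GCGCNTGCG on either strand, the site of a transcription factor known for nuclear respiratory genes. Cox6a1 lies at chr5:115348959-115349208 on the minus strand, Cox7a2l at chr17:83514334-83514583 on the minus strand, Ndufb8 at chr19:44555443-44555692 on the minus strand and Ndufaf4 at chr4:24897833-24898082 on the plus strand.
Cox6a1: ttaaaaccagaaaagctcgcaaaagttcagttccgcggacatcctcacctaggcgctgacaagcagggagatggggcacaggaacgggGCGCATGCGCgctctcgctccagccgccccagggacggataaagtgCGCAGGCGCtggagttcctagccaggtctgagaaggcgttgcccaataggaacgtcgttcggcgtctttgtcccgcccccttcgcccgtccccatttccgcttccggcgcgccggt
Cox7a2l: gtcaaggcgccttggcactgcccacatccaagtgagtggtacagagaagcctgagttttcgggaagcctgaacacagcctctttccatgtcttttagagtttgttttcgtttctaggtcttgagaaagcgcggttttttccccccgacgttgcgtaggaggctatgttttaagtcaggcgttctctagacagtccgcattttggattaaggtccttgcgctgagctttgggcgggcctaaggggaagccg
Ndufb8: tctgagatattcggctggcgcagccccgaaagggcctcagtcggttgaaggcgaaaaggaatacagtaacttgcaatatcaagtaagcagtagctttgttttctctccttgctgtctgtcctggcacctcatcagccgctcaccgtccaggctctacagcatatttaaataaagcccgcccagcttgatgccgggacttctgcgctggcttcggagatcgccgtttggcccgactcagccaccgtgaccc
Ndufaf4: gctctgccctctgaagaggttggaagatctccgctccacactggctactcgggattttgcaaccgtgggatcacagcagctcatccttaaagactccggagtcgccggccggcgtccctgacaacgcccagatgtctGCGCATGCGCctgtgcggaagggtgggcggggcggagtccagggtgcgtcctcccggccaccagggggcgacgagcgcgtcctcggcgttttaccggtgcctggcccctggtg

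In Cox6a1 overlapping matches on both strands began 162 and 161 bases before the gene start and another began 116 bases before it. In Ndufaf4 overlapping matches on both strands began 113 and 112 bases before the start, and Cox7a2l and Ndufb8 held none in this window. Sequences were found for 71 of the 89 members, with 76 promoters in all. The motif stood in 19 of these 76 promoters (25%), against 1706 of 32851 RefSeq promoters of the same length (5.19%). The motif CCGGAAGT, bound by GABP, stood in 2.63% of member promoters and 2.88% of all, and TATAAA in 10.5% and 12.4%, both searched on either strand. Member promoters held a median of 15 CpG dinucleotides and all promoters a median of 6, so the member promoters were also richer in CpG. The NRF1 and GABP motifs each contain a CpG. The part of CpG content in the NRF1 share was not tested. A match describes the letters and does not show binding.

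Members were bright on these arrays. Taking the highest nonspecific control probe set of each array as its background limit, 0.945 to 1.70 on the log2 scale, 82 of the 89 stood above it on all 11 arrays, 5 on some and 2 on none. The 7 that did not stand above it everywhere were the Complex IV isoforms Cox4i2, Cox6b2, Cox7a1, Cox7b2, Cox8b, Cox8c and Ndufa4l2. All 8 isoforms but Cox6a2 were therefore at or near background somewhere. Of the T cell markers, 7 of 7 stood above background on every array. Cd4 lay at 8.35 or higher on every CD4+ array and at 2.47 on Spl_CD8.

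**Figure D1:**
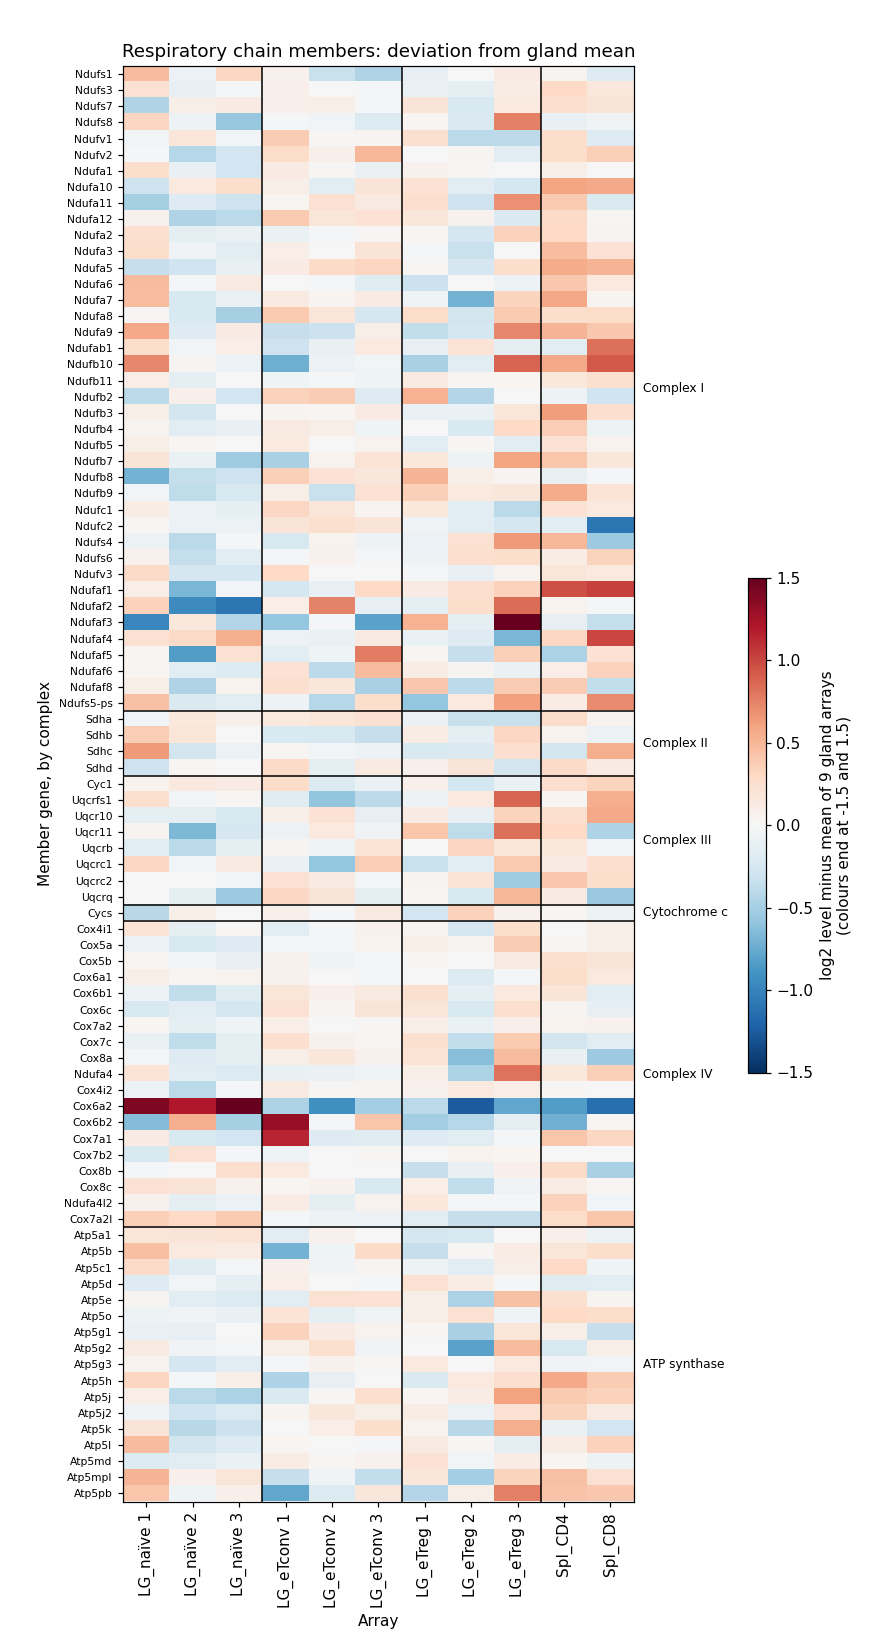
Log2 level of each of the 89 members on each of the 11 arrays (columns), as its difference from the gene's mean over the 9 gland arrays. Rows are grouped by complex. Cox6a2 reads 4.51 to 5.02 in LG_naïve and 2.06 to 2.89 on the other arrays, and the arrays LG_naïve 1 and LG_eTreg 3 are redder than their group for many genes.

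LG_eTconv was compared with LG_naïve to ask which members differ between effector and naïve cells of the inflamed gland. Of the 89 members, 3 passed limma's test (adjusted p under 0.05 after Benjamini-Hochberg correction across the whole table), 1 higher and 2 lower (3.37%). Over all genes tested 13.5% passed, 6.45% higher and 7.02% lower. Among the 8751 genes above background on all gland arrays, which are closer to the members in brightness, 19.4% passed. The members' median log2 difference was 0.11, against −0.03 over all genes. It ranged from 0.07 (without LG_naïve 2) to 0.15 on leaving out 1 array. The 95% interval lay within a 2-fold change either way for 77 members, so for those a larger shift is outside the interval. The other 12 are wider, and a missed threshold does not show that they were alike. The 3 LG_eTconv values lay wholly above the 3 LG_naïve values for 18 members (20.2%) and wholly below for 7 (7.87%). Over all genes the shares were 13.8% and 17.2%, and among genes above background on all gland arrays 17.9% and 23.3%. An unadjusted p under 0.05 was seen for 12 members (13.5%), against 25.1% of all genes. Leaving out LG_eTconv 3 left 1 member called (Cox6a2), and leaving out LG_eTreg 2 gave 5.

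LG_eTreg was set against the same LG_naïve arrays, so the comparisons share their controls. Here 4 of 89 members passed, 1 higher and 3 lower (4.49%), against 11.7% of all genes, 6.2% higher and 5.47% lower, and 16.9% of genes above background on all gland arrays. The median member difference was 0.09 and that of all genes −0.02. The members' median was 0.01 without LG_eTreg 3, 0.05 without LG_naïve 2 and 0.13 without LG_naïve 1. The 95% interval stayed within 2-fold for 78 members. The LG_eTreg values lay wholly above LG_naïve for 9 members (10.1%) and wholly below for 6 (6.74%). Over all genes the shares were 13.3% and 13.9%, and among genes above background on all gland arrays 17.6% and 17.5%. An unadjusted p under 0.05 was seen for 13 members (14.6%), against 23.0% of all genes. The count was 2 (Cox6a2 and Cox7a2l) without LG_naïve 2, LG_naïve 3, LG_eTconv 2 or LG_eTconv 3. In bulk samples, fewer cells of a type and less RNA per cell cannot be told apart.

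**Figure D2:**
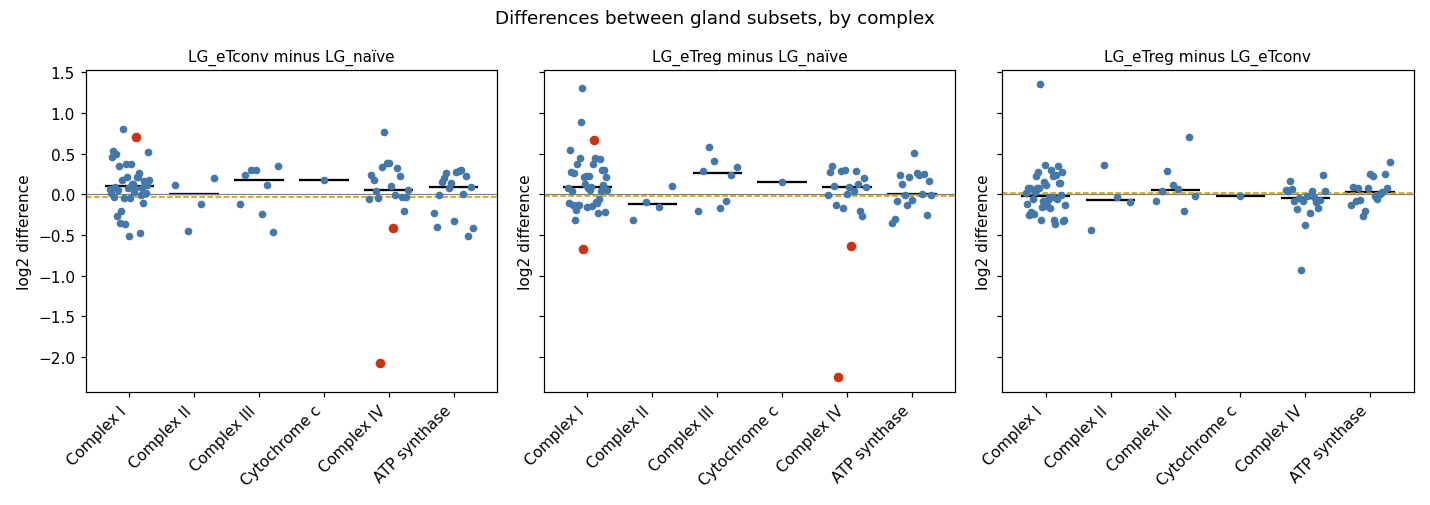
Fitted log2 difference of each member (points), by complex, in the comparisons among the 3 gland subsets of 3 arrays each. Red points passed at adjusted p under 0.05, black bars are the complex medians and the dashed line is the median of all 17097 genes. The red points number 3, 4 and 0 from left to right, and Cox6a2 lies far below the rest on the left and in the middle.

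Cox6a2 encodes the heart and skeletal muscle isoform of subunit 6a of Complex IV, and its transcript is also known from plasmacytoid dendritic cells. On the log2 scale it read 4.71, 4.51 and 5.02 on the LG_naïve arrays. It read 2.83, 2.39 and 2.80 in LG_eTconv and 2.89, 2.06 and 2.52 in LG_eTreg. Spl_CD4 read 2.47 and Spl_CD8 2.18. LG_naïve stood alone, with no overlap with any other group, and every array was above its background limit. Its level was 4.20-fold lower in LG_eTconv (log2 difference −2.07 ± 0.23 SE, n = 3 against 3, limma adjusted p = 0.000536). In LG_eTreg it was 4.76-fold lower (−2.25 ± 0.23 SE, adjusted p = 0.000397). The call held under all 19 alternative settings in both comparisons.

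Several lists of markers of other cells summed higher in LG_naïve than in either effector subset. The CD8 T cell pair and the muscle and fat list did not, and single genes within lists differed. For plasmacytoid dendritic cells a list of 7 measured genes, chosen with the results known, was summed on the linear scale and returned to log2. It read 9.16 to 9.30 in LG_naïve, 7.77 to 8.08 in LG_eTconv and 7.41 to 7.51 in LG_eTreg, with 7.46 in Spl_CD4 and 7.95 in Spl_CD8. All 7 were above background on every LG_naïve array and on both spleen arrays. In LG_eTconv and in LG_eTreg, 6 were above it on every array, so signal above background did not set LG_naïve apart. Klra17 read 7.99 to 8.16 in LG_naïve, and Pacsin1 was higher in LG_eTconv, at 7.29 to 7.71, than in LG_naïve, at 6.29 or less. Siglech, a defining marker, was not analysed here.

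The list of 7 monocyte, macrophage and dendritic cell markers summed to 9.27 to 9.67 in LG_naïve, 7.04 to 7.38 in LG_eTconv and 7.13 to 7.28 in LG_eTreg. It was 9.09 in Spl_CD4 and 9.48 in Spl_CD8. Csf1r was not above background on any gland array. Lacrimal epithelium markers (6 genes) summed to 8.30 to 9.50 in LG_naïve, 6.02 to 6.64 in LG_eTconv and 7.28 to 8.17 in LG_eTreg. They summed to 4.77 in Spl_CD4 and 4.63 in Spl_CD8. Within this list Epcam read 5.68 to 6.85 in LG_eTreg, against 5.49 to 5.96 in LG_naïve. B and plasma cell markers (4 genes) summed to 8.13 to 8.45 in LG_naïve, 7.11 to 7.90 in LG_eTconv and 6.17 to 7.20 in LG_eTreg. The spleen sums were 8.84 in Spl_CD4 and 9.64 in Spl_CD8. Fibroblast and endothelium markers (4 genes) summed to 5.57 to 5.82, 4.18 to 4.41 and 3.01 to 3.49 in the same order of gland groups. In Spl_CD4 and Spl_CD8 the sums were 5.20 and 4.39. The pair of CD8 T cell markers summed to 4.70 to 5.33, 6.22 to 6.86 and 5.21 to 5.35 in that order, with 4.64 in Spl_CD4 and 9.53 in Spl_CD8. Of 5 muscle and fat markers, Acta1, Myh4, Adipoq and Ucp1 were at background on every array and Ckm stood above it only on some. The part of the other cells in the Cox6a2 difference, or in any other difference from LG_naïve given here, was not tested.

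Cox7a2l encodes the factor that links Complexes III and IV into supercomplexes. It read 8.52, 8.46 and 8.55 in LG_naïve, 8.14, 8.08 and 8.07 in LG_eTconv and 7.99, 7.82 and 7.81 in LG_eTreg, with 8.43 in Spl_CD4 and 8.57 in Spl_CD8. The 3 gland groups did not overlap, and both spleen arrays stood with or near LG_naïve. Its level fell by 0.41 in LG_eTconv (SE 0.093, limma adjusted p = 0.0196) and by 0.64 in LG_eTreg (SE 0.093, adjusted p = 0.00258). All 3 of its probe sets passed as lower in both comparisons. The LG_eTreg call held under all 19 alternatives. The LG_eTconv call held under 15, and was lost without LG_naïve 3, LG_eTconv 2 or LG_eTconv 3 (adjusted p 0.0642 to 0.0692) and without the 3 arrays with unusual controls (0.0940).

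Ndufb8 encodes an accessory subunit of Complex I whose protein is a common marker of complex assembly. It read 7.09, 7.45 and 7.49 in LG_naïve, 8.15, 8.01 and 7.97 in LG_eTconv, 8.31, 7.89 and 7.85 in LG_eTreg, 7.69 in Spl_CD4 and 7.78 in Spl_CD8. LG_naïve was lowest with no overlap. The rise was 0.70 in LG_eTconv (SE 0.16, adjusted p = 0.0223) and 0.67 in LG_eTreg (SE 0.16, adjusted p = 0.0314). Its other, dimmer probe set differed by −0.11 and 0.74 and passed in neither. With the mean of both probe sets the LG_eTconv difference was 0.29 (adjusted p = 0.446). Over the alternatives the call held in 12 of 19 for LG_eTconv, being lost without LG_naïve 1 or without any 1 of the LG_eTconv arrays. It held in 7 of 19 for LG_eTreg, being lost without any 1 LG_naïve array and without LG_eTconv 2 or 3 or LG_eTreg 1 or 2 (adjusted p at most 0.0887).

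Ndufaf4, a Complex I assembly factor, read 6.12, 6.18 and 6.43 in LG_naïve, 5.80, 5.79 and 6.03 in LG_eTconv and 5.79, 5.70 and 5.20 in LG_eTreg, with 6.20 in Spl_CD4 and 6.89 in Spl_CD8. Every LG_eTreg value was below every LG_naïve value, and LG_eTreg 3 was the lowest of all. It fell by 0.68 in LG_eTreg (SE 0.17, adjusted p = 0.0388). The LG_eTconv difference was −0.37 (adjusted p = 0.236). The second probe set differed by −0.14 in LG_eTreg and did not pass. The call held in 6 of 19 alternatives and was lost on leaving out any 1 gland array but LG_eTreg 1 (adjusted p up to 0.261 over all alternatives).

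**Figure D3:**
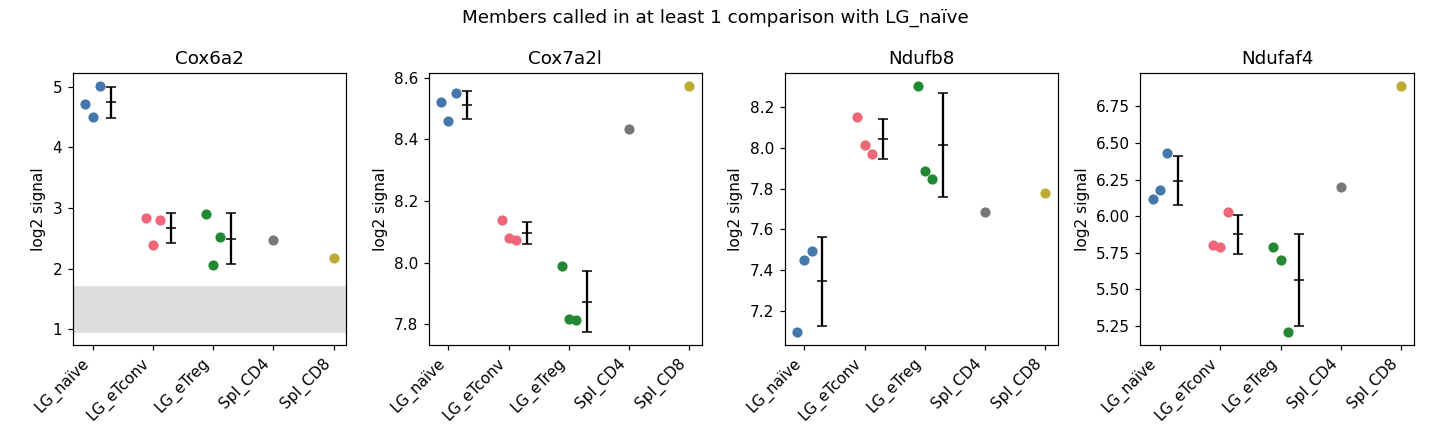
Log2 signal of the 4 members that passed in a comparison with LG_naïve, 1 point per array, with the mean and SD of each group of 3 beside it. The grey band for Cox6a2 is the range of background limits, 0.945 to 1.70; Spl_CD4 and Spl_CD8 are single arrays. LG_naïve is highest for Cox6a2 and lowest for Ndufb8.

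By complex, few members of Complex I passed. The 95% interval lay within 2-fold for 34 of 40 in LG_eTconv and for 33 in LG_eTreg. In LG_eTconv 1 of 40 passed, with a median of 0.10 and a range of −0.51 to 0.80, and in LG_eTreg 2 of 40, with a median of 0.08 and a range of −0.68 to 1.31. Of the 6 core subunits measured, none passed in either comparison (limma; 2 had an unadjusted p under 0.05 in LG_eTconv, 0 in LG_eTreg). Ndufs1, the iron-sulfur subunit that takes electrons from the flavin site, differed by −0.47 (95% interval −0.90 to −0.05, adjusted p = 0.149) in LG_eTconv and by −0.23 in LG_eTreg. Ndufv1, which holds the flavin, differed by 0.11 (−0.34 to 0.56) and −0.22 (−0.66 to 0.23). Nearest the threshold in LG_eTconv, and chosen after their values were seen, were Ndufv2 at 0.53 (adjusted p = 0.0564), Ndufa5 at 0.50 (0.0597) and Ndufa12 at 0.53 (0.0770).

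Among the assembly factors, also chosen after their values were seen, Ndufaf3 had the largest LG_eTreg difference, 1.31, with an interval of −0.01 to 2.63 and an adjusted p of 0.221. It read 2.84, 3.98 and 3.39 in LG_naïve and 4.35, 3.69 and 6.09 in LG_eTreg. Only LG_eTreg 3 lay well above the rest.

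Complex II, succinate dehydrogenase, had none of its 4 subunits called (limma; 1 had an unadjusted p under 0.05 in each comparison). Sdha, the flavoprotein, differed by 0.12 in LG_eTconv and by −0.32 in LG_eTreg (adjusted p = 0.110). Sdhb, the iron-sulfur subunit, differed by −0.45 in LG_eTconv (adjusted p = 0.0824) and by −0.09 in LG_eTreg. The membrane anchors Sdhc and Sdhd differed by −0.12 and 0.20 in LG_eTconv and by −0.16 and 0.10 in LG_eTreg. All 4 intervals lay within 2-fold in both comparisons.

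Complex III had no call among 8 members in either comparison (limma; 0 and 1 had an unadjusted p under 0.05). Uqcrc1 and Uqcrc2, the core proteins, differed by −0.24 and 0.12 in LG_eTconv and by −0.17 and −0.08 in LG_eTreg. Cyc1, cytochrome c1, differed by −0.12 and −0.20, and Uqcrfs1, the Rieske iron-sulfur protein, by −0.46 and 0.24. Cycs, the mobile cytochrome c, differed by 0.17 (−0.26 to 0.60) and 0.15 (−0.29 to 0.58).

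In Complex IV the 10 general subunits had a median of 0.14 in LG_eTconv and 0.17 in LG_eTreg, and none passed (limma; 2 and 1 had an unadjusted p under 0.05). Cox4i1 differed by −0.06 and −0.01, Cox5a by 0.18 and 0.35 (adjusted p = 0.101 for the second) and Cox5b by 0.03 and 0.10. Ndufa4, named for Complex I but a subunit of Complex IV, differed by −0.03 and 0.20. Cox6a1, the general counterpart of Cox6a2 and named for that reason, read 9.06, 9.01 and 9.03 in LG_naïve, 9.03, 8.98 and 8.95 in LG_eTconv and 8.98, 8.76 and 8.96 in LG_eTreg. Its differences were −0.04 (−0.26 to 0.18) and −0.13 (−0.35 to 0.09). The other isoforms named by the rule did not pass. Cox6b2, the testis isoform, ranged from 1.47 to 3.49 over the 11 arrays, its highest value being 1 LG_eTconv array.

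ATP synthase had no call among 17 members (limma; 1 and 4 had an unadjusted p under 0.05), with medians of 0.09 and 0.00. Atp5a1 and Atp5b encode the alpha and beta subunits of the catalytic head. Atp5a1 read 7.97, 7.99 and 8.00 in LG_naïve, 7.63, 7.85 and 7.79 in LG_eTconv and 7.53, 7.56 and 7.79 in LG_eTreg. Its differences were −0.23 (adjusted p = 0.243) and −0.36 (adjusted p = 0.0786), and without LG_eTreg 3 the second was −0.44 (adjusted p = 0.04996). Atp5b differed by −0.40 (−0.97 to 0.17) and −0.31 (−0.88 to 0.26).

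LG_eTreg was set against LG_eTconv directly, which is the test of a difference between the effector subsets. Of the 89 members, none passed limma's test, against 5.7% of all genes (2.94% higher, 2.76% lower) and 7.94% of genes above background on all gland arrays. An unadjusted p under 0.05 was seen for 7 members (7.87%), against 16.2% of all genes. The median member difference was −0.02, and 0.01 over all genes. The members' median changed sign on leaving out 1 array: it was 0.07 without LG_eTreg 2 and 0.01 without LG_eTconv 1, and −0.08 without LG_eTreg 3 and −0.04 without LG_eTconv 3. The interval lay within 2-fold for 82 of the 89. The LG_eTreg values lay wholly above LG_eTconv for 3 members (11.8% of all genes) and wholly below for 7 (9.63%).

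Sdha came nearest. It read 8.39, 8.43 and 8.48 in LG_eTconv, 8.16, 7.91 and 7.92 in LG_eTreg and 8.21, 8.40 and 8.32 in LG_naïve. All LG_eTreg values were the lower, and the difference was −0.43 (95% interval −0.68 to −0.19, adjusted p = 0.0564). It passed in 3 of 19 alternatives, among them without LG_eTreg 1 (−0.52, adjusted p = 0.0403), and its other 3 probe sets differed by −0.15, −0.05 and −0.17 with none called. Ndufc2, an accessory subunit of Complex I chosen after its values were seen, differed by −0.37 (adjusted p = 0.0672). Uqcrfs1 differed by 0.70 (0.16 to 1.25, adjusted p = 0.170), with 5.91, 5.50 and 5.70 in LG_eTconv against 6.01, 6.24 and 6.97 in LG_eTreg. Cox6a2 differed by −0.18 (−0.72 to 0.36) and Cox7a2l by −0.22 (−0.44 to −0.01, adjusted p = 0.276).

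Within groups, 1 array often led. On LG_naïve 1, 60 of 89 members were at their group's highest value, and on LG_eTreg 3, 52 of 89. On LG_naïve 2 and on LG_eTreg 2, 45 of 89 were at their group's lowest. These counts were not made over all genes. The members' median on LG_eTreg 3 was 7.50, against 7.07 and 7.16 on the other LG_eTreg arrays. The 18S ribosomal RNA control read 6.76 on LG_eTreg 3 and 6.15 on LG_naïve 1, and 3.57 to 5.34 on the other 9 arrays. The median SD of members was 0.24 in LG_eTreg, 0.13 in LG_eTconv and 0.18 in LG_naïve, against 0.19, 0.17 and 0.18 for all genes. On LG_eTconv 1 the actin control had the widest gap between its 3′ and 5′ probe sets. Without LG_naïve 1, LG_eTreg 3 and LG_eTconv 1, the members that passed were 2 in LG_eTconv, 3 in LG_eTreg and 0 between the effector subsets. The part of these controls in the members' values was not tested.

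LG_naïve and Spl_CD4 compare naïve gland cells with total spleen CD4 cells, and with 1 spleen array there is no test. Members were lower in LG_naïve by a median of 0.22, while all genes had a median difference of 0.00, and 69 of 89 members were below Spl_CD4. A log2 difference of at least 0.5, with all 3 LG_naïve arrays on the same side, was seen for 16 members lower (18.0%; 11.9% of all genes) and 2 higher (2.25%; 10.6% of all genes). The 16 include Cox7a1, which was not above background on any array. Of the 16, 12 were in Complex I, out of 40 (30.0%), and 10 of them among its 26 accessory subunits. The 5 furthest below were Ndufaf1 at −1.18, Ndufa5 at −0.81, Ndufb9 at −0.78, Ndufa11 at −0.73 and Ndufb3 at −0.69. Ndufaf1 is an assembly factor and the others are accessory subunits. Ndufa5 read 8.12, 8.17 and 8.36 in LG_naïve, 9.03 in Spl_CD4 and 8.98 in Spl_CD8. The 2 higher members were Cox6a2, by 2.27, and Cox6b2, by 0.51, the latter not above background in Spl_CD4. Among the 8751 genes above background on all gland arrays, 16.5% were lower and 13.4% higher, and among the 82 such members 18.3% and 1.22%. The members' share lower was therefore near that of these genes, though their median difference was −0.26 against −0.05. Of the 82, 64 were below Spl_CD4. These genes were also dimmer, with LG_naïve array medians of 5.39 to 5.48 against 7.22 to 7.48 for the 82 members.

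**Figure D4:**
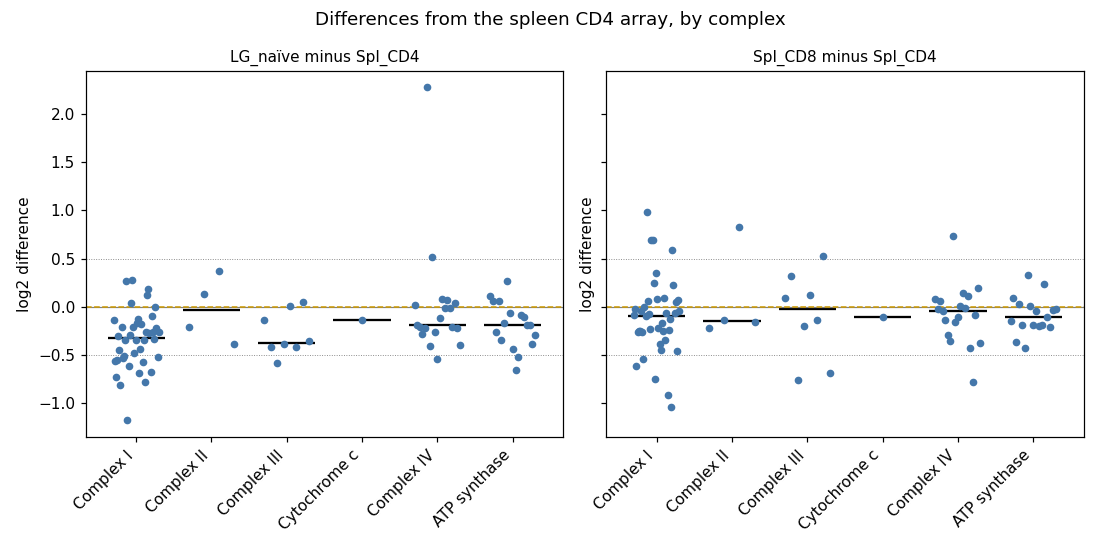
Log2 difference of each member (points), by complex, of the LG_naïve mean of 3 arrays from the single Spl_CD4 array (left) and of the single Spl_CD8 array from Spl_CD4 (right). Black bars are complex medians, the dashed line is the median of all genes and dotted lines mark 0.5. Most Complex I points lie below 0 on the left, with a median of −0.32, and Cox6a2 is the highest point there.

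The spleen arrays differed from each other by a median of −0.10 over the members, Spl_CD8 minus Spl_CD4, and 0.00 over all genes. At 0.5 or more, 7 members were higher in Spl_CD8 (7.87%; 10.6% of all genes) and 8 lower (8.99%; 12.5%). Higher were Ndufab1, the mitochondrial acyl carrier protein, by 0.98, Sdhc by 0.83, Cox6b2 by 0.73, Ndufaf4 by 0.69 and Ndufaf5 by 0.69. Lower were Ndufs4 at −1.04, Ndufc2 at −0.91, Cox8b at −0.78, Uqcr11 at −0.76 and Ndufaf8 at −0.75. Cox8b was not above background on either spleen array, so its difference is one between background readings, and Cox6b2 was not above background on Spl_CD4. Among the genes above background on all gland arrays, 13.5% were higher and 16.6% lower.

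Genes that build, feed or serve the chain were read from the same fit, where 13.5% of all genes passed in LG_eTconv, 11.7% in LG_eTreg and 5.7% between them. Of 18 regulators of mitochondrial biogenesis, 5 were lower and 0 higher in LG_eTconv (median −0.41), and 2 were lower and 1 higher in LG_eTreg (median −0.34). In LG_eTconv the largest were Ppargc1b, a coactivator of mitochondrial genes, by −1.44 (limma adjusted p = 0.00933), Polg2, the accessory subunit of the mitochondrial DNA polymerase, by −0.76, and Tfam, the mitochondrial DNA packaging and transcription factor, by −0.67. In LG_eTreg, Polg2 differed by −0.72, Pprc1, a PGC-1 family coactivator, by −0.69, and Gabpb1, a subunit of GABP, by 0.56. None of the 18 passed between LG_eTreg and LG_eTconv.

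Of 35 assembly factors, counted without the 7 Ndufaf members, 2 were higher in LG_eTconv, and 2 higher and 1 lower in LG_eTreg. Sdhaf1, which helps mature Complex II, rose by 1.07 in LG_eTconv. Pet100, which acts in Complex IV assembly, rose by 0.63 in LG_eTconv and 0.76 in LG_eTreg, and Surf1, another Complex IV assembly factor, by 0.92 in LG_eTreg. Coa6, a copper-related Complex IV factor, differed by −0.91 in LG_eTreg.

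Of 17 citric acid cycle genes, only Idh2, the mitochondrial NADP isocitrate dehydrogenase, passed, at −0.98 in LG_eTconv and −1.03 in LG_eTreg. Other inputs to ubiquinone and cytochrome c (15 genes) had no call in LG_eTconv (limma). In LG_eTreg, Dhodh, of pyrimidine synthesis, differed by −1.58, Gpd2, the glycerol phosphate shuttle enzyme, by −1.33 and Hccs, which attaches heme to cytochromes c, by 0.86. Sqor, which oxidises sulfide, was lower in LG_eTreg than in LG_eTconv, by −0.63. Of 13 fatty acid oxidation genes, Acadm, the medium-chain acyl-CoA dehydrogenase, passed at −0.82 in LG_eTreg.

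Among 16 carriers and uncoupling genes, Slc25a13, an aspartate-glutamate carrier, rose by 1.43 in LG_eTconv and by 0.85 in LG_eTreg, while its paralog Slc25a12 differed by −0.86 in LG_eTconv. Atpif1, the inhibitor of ATP synthase hydrolysis, rose by 0.80 in LG_eTconv. Slc25a4, an ADP/ATP carrier, was lower in LG_eTreg than in LG_eTconv, by −0.88. Of 9 antioxidant genes, Txnrd2 and Gpx4 rose in LG_eTconv, by 0.64 and 0.44.

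Of 73 mitochondrial ribosomal proteins, 2 were higher and 3 lower in LG_eTconv and 3 higher and 2 lower in LG_eTreg. Mrps6 rose by 1.97 and 1.73, Mrpl52 by 0.99 in LG_eTconv, and Mrpl58 differed by −1.12 there. In LG_eTreg, Mrps27 differed by −1.23 and Mrpl48 by −0.83, the latter also lower than in LG_eTconv, by −0.85. Of 70 cytosolic ribosomal proteins, Rps10 was the 1 called in LG_eTconv, at −0.54, and in LG_eTreg 1 was higher and 5 lower, among them Rplp1 at −1.07, Rplp0 at −0.74 and Rps27l, the 1 higher, at 0.80.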

How the data were processed

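Sorted T cells were profiled on Affymetrix HT MG-430 PM arrays. The deposited log2 values, 1 column per array, were computed by the authors with Partek's RMA, according to the submitters' processing notes; the log base was inferred from RMA. Of 45141 probe sets, 28898 carried 1 gene symbol in the platform annotation, 551 several, 15588 none and 104 were controls; a gene was read from its brightest probe set. RMA compresses differences of dim genes, and the number of arrays limits the precision.

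Differences were fitted with limma 3.58.1 in R 4.3.3 on the 9 gland arrays (6 residual degrees of freedom), without a block, with Benjamini-Hochberg adjustment over 17097 genes, and the fit was tested on simulated data. Spleen arrays, 1 per group, got no test. Named were all called members, a fixed set of central and isoform genes, up to 3 called genes per companion list, and the 5 furthest members each way in spleen comparisons. The members and lists were chosen with earlier results of these data known. Alternatives changed the probe set rule, dim-gene filter, scaling, variance model, arrays fitted, replicate block and members counted. The NRF1 motif was shortened by 1 letter after a first search with the longer form had been seen.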

Additional observations from a re-analysis of the deposited data

How the results depend on the processing

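For the members named, 1420 of 1460 alternative values kept their side of the threshold, 36 lost the call and 4 gained one. Most of the 1460 belonged to differences not called in the main fit, so the calls were less stable than this share. Ndufaf4 lost its LG_eTreg call in 13 of 19 alternatives. Ndufb8 lost the call in 12 in LG_eTreg and 7 in LG_eTconv, and Cox7a2l in 4 in LG_eTconv. No called value changed sign. 63 of the 1420, called in neither setting, did (lowest adjusted p 0.557). The median difference between LG_eTreg and LG_eTconv changed sign under 4 alternatives, reading 0.00 with the mean of probe sets and with centred arrays. The medians over members moved by less than 1 SD between replicates (0.138) under every alternative. In LG_eTconv against LG_naïve, 6 members passed with a mean-variance trend and robust moderation, and 1 to 5 on leaving out 1 array. In LG_eTreg against LG_naïve, 2 passed with the mean of probe sets, with only the groups compared, and with structural subunits only, and 2 to 4 on leaving out 1 array. Between LG_eTreg and LG_eTconv, 2 passed with quantile normalization (Ndufc2 and Sdha), 1 with the trend and robust moderation, and 0 to 1 on leaving out 1 array. The cause was not tested. The replicate numbers 1 to 3 are shared by the gland groups, but no label ties a number to a mouse. Each array's deviations from its group mean were correlated across genes with those of arrays in other groups. Same-numbered arrays gave −0.0969 to 0.2832, and not every array correlated best with its own number. Between LG_eTconv and LG_eTreg, however, same-numbered arrays gave 0.0788 to 0.2832 and the others −0.2296 to 0.0191. Deviations within a group cancel out, so higher same-number values go with lower values for the others. The main fit did not use these numbers. With the replicate number as a block, 4, 2 and 0 members passed in the order given. Signal over background limits the 7 dim isoforms.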
